A study of Mus musculus with 24 samples.

Results

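The genes examined here are those named Nduf, which encode nuclear subunits of respiratory complex I and factors that help to build it. Members were all rows whose gene symbol starts with Nduf, 45 of the 14912 genes in the table. They comprised 36 subunits, 7 assembly factors named Ndufaf and 2 genes, Ndufa4 and Ndufa4l2, that carry the name but are not counted as complex I subunits. The symbols Ndufb1 and Ndufaf8 and the complex I subunits encoded by mitochondrial DNA were not analysed here.

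Complex I, or NADH dehydrogenase, is the entry point of the respiratory chain for electrons from NADH. Its N module oxidises NADH, its Q module passes the electrons to ubiquinone, and its membrane arm pumps protons across the inner mitochondrial membrane. Assembly factors bind intermediates of the complex, or modify its subunits, and are not part of the finished enzyme. Cardiac muscle is rich in mitochondria and relies on this chain for most of its ATP.

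Left ventricles came from male wild-type C57BL/6J mice that carried subcutaneous osmotic mini-pumps for 7 days. The ANG II group (12 mice) received angiotensin II at 1500 ng/kg/min, a dose that raises blood pressure, and the control group (12 mice) received saline. The hearts were flushed with saline before removal, and the age of the mice is not given in the sources used here. The study describes further mice of each group, which were not analysed here. RNA was selected with oligo(dT), sequenced in pairs, and deposited as 1 FPKM value per gene and mouse. FPKM is the number of fragments divided by transcript length and by the number of mapped fragments, so plain FPKM values can be set side by side between genes. The whole ventricle was sequenced, and in such bulk samples fewer cells of a type and less RNA per cell cannot be told apart.

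The deposited values are not plain FPKM, since 2741 of them (0.766%) are negative, although 0 of these are in Nduf genes. Exact ties divided the mice into 4 sets, consisting of samples 1 to 3, 4 to 6, 7 to 9 and 10 to 12 in each group. For 13533 genes (90.8%) the spacing of the values showed that they had been shifted and scaled within these sets. For the other genes this could not be resolved. Summed values ranged from 460715 to 515185 in the ANG II mice and from 482319 to 567727 in the controls, where sample 3 was highest. The number of fragments per mouse is unknown, as is how far the step moved the level of a gene, so all levels below are deposited levels. The cardiac identity of the samples is shown by their cardiomyocyte genes, 8 of 8 present, of which the myosin light chain gene Myl2 averaged 13232 FPKM in the controls.

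All 36 subunits of complex I had lower transcript levels with ANG II, and all 36 passed the test. The median log2 fold change was -0.42, a median change of the mean FPKM of -25.0%, and single subunits ranged from -0.19 (Ndufs1) to -0.62 (Ndufa3). Of the 7 Ndufaf assembly factors, 4 fell, 0 rose and 3 did not pass, their median log2 fold change being -0.20 and a median change of -13.5%. Fold changes are differences of the group means of log2(FPKM + 1), and calls are at an adjusted p under 0.05 in limma over all 14026 genes tested. Over these genes, 12.6% were called lower and 20.9% higher, and the log2 fold change had a median of 0.06. The 2 kinds of member also differed in deposited level, since the control means of the subunits ran from 102 to 920.3 FPKM (median 433) and those of the Ndufaf genes from 16.8 to 35.5 FPKM (median 18.8). The difference between the subunits and the Ndufaf genes is a description of these lists and was not tested.

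**Figure D1:**
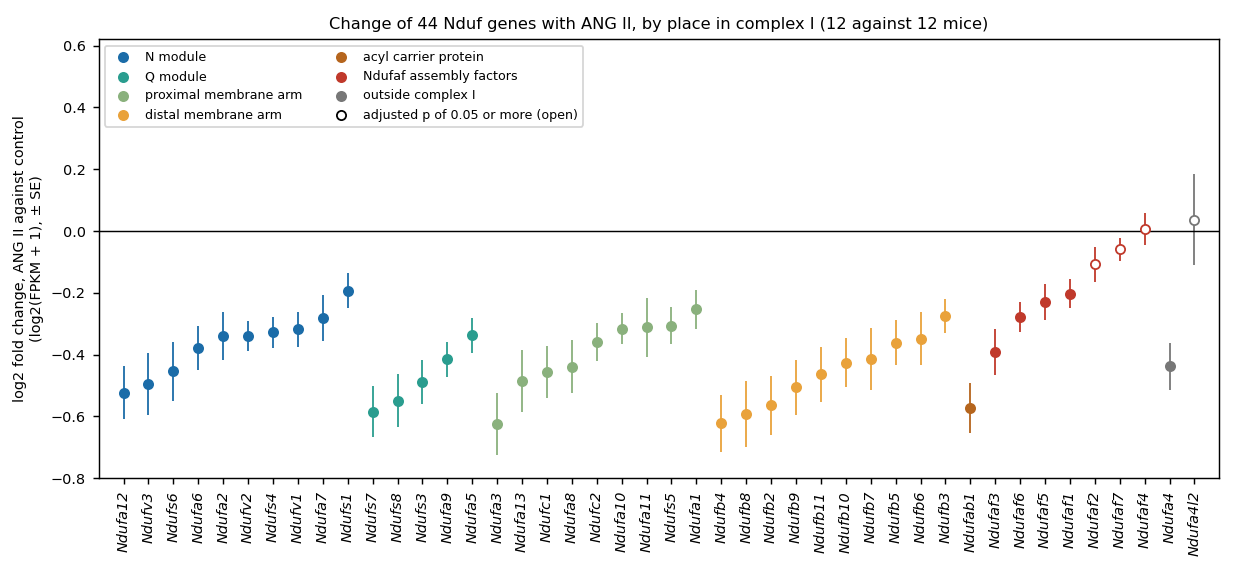
Log2 fold change of 44 Nduf genes on the log2(FPKM + 1) scale, ANG II against control, with its SE from limma (12 mice a group), grouped by place in complex I; open circles have an adjusted p of 0.05 or more. The 35 subunits plotted sit between -0.62 and -0.19, and the 4 open circles are Ndufaf2, Ndufaf7, Ndufaf4 and Ndufa4l2.

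Summed over the 36 subunits, control mice held 12194 to 19324 FPKM (median 15744) and ANG II mice 9476 to 13650 FPKM (median 11421). The sums overlapped only in that 1 control mouse, sample 2, lay below the highest ANG II mice, and 8 of 12 ANG II mice lay below the lowest control. Summed over the 7 Ndufaf genes, the controls held 134 to 165 FPKM (median 151) and the ANG II mice 119 to 145 FPKM (median 132). Here 10 of 12 ANG II mice lay below the lowest control. All Nduf genes together took 2.79% to 3.79% of the summed values in the controls (median 3.42%) and 2.27% to 2.91% in the ANG II mice (median 2.63%).

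**Figure D2:**
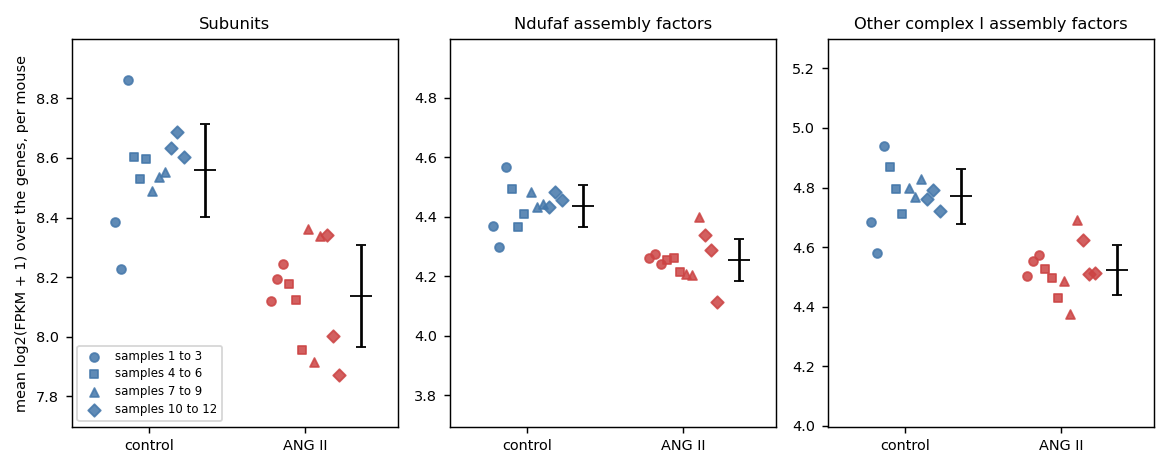
Mean log2(FPKM + 1) per mouse over the 36 subunits, the 7 Ndufaf genes and 9 other complex I assembly factors; each axis spans the same range, symbols mark the 4 sets of samples, and bars give the mean ± SD of 12 mice. The group means of the subunits differ by -0.42, those of the Ndufaf genes by -0.18 and those of the other factors by -0.25, and control samples 1 and 2 lie lowest among the controls for the subunits.

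The core subunits encoded in the nucleus carry the flavin, the iron-sulfur clusters and the quinone site. Ndufs7, which lies at the quinone site (chr10:80249121-80256794 on GRCm38), ranged from 423 to 678 FPKM in the controls (median 553) and from 287 to 476 FPKM with ANG II (median 383), a log2 fold change of -0.59 (SE 0.08). Ndufs8, which holds iron-sulfur clusters next to the quinone site, ranged from 219.9 to 365 FPKM (median 274) against 141 to 246 FPKM (median 195), a log2 fold change of -0.55 (SE 0.09). Ndufs3, a structural core subunit of the Q module, ranged from 332 to 513 FPKM (median 434) against 248 to 368 FPKM (median 311), a log2 fold change of -0.49 (SE 0.07). In each of these 3 genes the groups overlapped at their edges, with 9, 10 and 8 of 12 ANG II mice below the lowest control for Ndufs7, Ndufs8 and Ndufs3.

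The core subunits of the N module had smaller fold changes, a difference that was not tested. Ndufv1, which binds NADH and the flavin, ranged from 389.9 to 524 FPKM in the controls (median 479) and from 314 to 433 FPKM with ANG II (median 380.3), a log2 fold change of -0.32 (SE 0.06). Its partner Ndufv2 ranged from 287 to 401 FPKM (median 345) against 238 to 308 FPKM (median 267), a log2 fold change of -0.34 (SE 0.05). The ANG II mice of both genes lay mostly below the controls, 7 of 12 for Ndufv1 and 10 of 12 for Ndufv2 below the lowest control. Ndufs1, the largest of the core subunits, ranged from 214 to 289 FPKM (median 249.4) against 185 to 269.6 FPKM (median 222). Its groups overlapped widely, with 5 of 12 ANG II mice below the lowest control, and its log2 fold change of -0.19 (SE 0.06, adjusted p = 0.0102) was the smallest of the subunits. Without samples 4 to 6 of each group Ndufs1 was at -0.18 (adjusted p = 0.0521), and without samples 7 to 9 at -0.12 (adjusted p = 0.143).

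By place in the complex, 10 of 10 subunits of the N module fell, with a median log2 fold change of -0.34, and 6 of 6 of the Q module, with a median of -0.48. In the membrane arm, 9 of 9 subunits of the proximal part fell (median -0.36) and 10 of 10 of the distal part (median -0.44). The 29 accessory subunits, which surround the catalytic core, had a median of -0.42. The ranges of these parts overlapped, from -0.52 to -0.19 in the N module, -0.59 to -0.34 in the Q module, -0.62 to -0.25 in the proximal and -0.62 to -0.27 in the distal membrane arm. Differences between the parts were not tested.

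The 5 largest falls outside the core, Ndufab1 and Ndufv3 were those of Ndufa3, Ndufb4, Ndufb8, Ndufb2 and Ndufa12. Ndufa3, a small accessory protein of the proximal membrane arm (chr7:3617373-3620327), ranged from 629 to 1186 FPKM in the controls (median 817) and from 394 to 790.3 FPKM with ANG II (median 548). All but 1 of its 12 ANG II mice lay below the lowest control, and its log2 fold change was -0.62 (SE 0.10, adjusted p = 6.36e-05).

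The other 4 belong to the membrane arm and the N module. Ndufb4, in the distal membrane arm, ranged from 366 to 638 FPKM (median 503) against 222 to 404 FPKM (median 322), a log2 fold change of -0.62 (SE 0.09). Ndufb8, also distal, ranged from 661 to 1198 FPKM (median 920.4) against 438 to 856 FPKM (median 588), a log2 fold change of -0.59 (SE 0.11). Both genes had overlapping groups with most ANG II mice, 9 and 8 of 12, below every control. Ndufb2, a further distal subunit, ranged from 187 to 327 FPKM (median 251) against 115 to 229.5 FPKM (median 174), a log2 fold change of -0.56 (SE 0.10). Ndufa12, an N module subunit, ranged from 437 to 690.3 FPKM (median 557) against 280.5 to 485 FPKM (median 402), a log2 fold change of -0.52 (SE 0.08). Of the ANG II mice, 9 of 12 for Ndufb2 and 10 of 12 for Ndufa12 lay below the lowest control. No subunit rose, so there is none to name in that direction. With an added criterion of a log2 fold change beyond 0.5 (the study's methods give this size without the base of the logarithm), 9 of the 36 subunits remained, where 1.4% of all genes tested were lower by these criteria; besides the 5 above they were Ndufs7, Ndufs8, Ndufab1 and Ndufb9.

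Ndufab1 is the mitochondrial acyl carrier protein, which serves fatty acid synthesis in mitochondria and also sits in complex I. It ranged from 429 to 755 FPKM in the controls (median 573) and from 313 to 508 FPKM with ANG II (median 395). All but 2 of its ANG II mice lay below the lowest control, and its log2 fold change was -0.57 (SE 0.08, adjusted p = 1.51e-05). Ndufv3, a small accessory protein beside the NADH-binding subunits, ranged from 399.96 to 686 FPKM (median 519) against 239.8 to 546 FPKM (median 373). Its groups overlapped, with 10 of 12 ANG II mice below the lowest control, and its log2 fold change was -0.49 (SE 0.10, adjusted p = 0.000694).

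A further 22 subunits had log2 fold changes from -0.51 (Ndufb9) to -0.25 (Ndufa1). Among them were Ndufs4 at -0.33, a subunit whose loss causes Leigh syndrome, and Ndufs6 at -0.45. The largest adjusted p of any subunit was 0.0156, that of Ndufa11. Without samples 4 to 6 of each group, 31 of 36 subunits were past the threshold, and those that were not were Ndufa11, Ndufa7, Ndufb6, Ndufb7 and Ndufs1. Without samples 7 to 9, 34 were past it (not Ndufa1 and Ndufs1), and without samples 10 to 12 also 34 (not Ndufa11 and Ndufa7).

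The Ndufaf genes divided by their measured change. Ndufaf3, which acts early on the Q module together with Ndufaf4, ranged from 19.5 to 29.6 FPKM in the controls (median 24.5) and from 13.4 to 22.3 FPKM with ANG II (median 18.8). All 12 ANG II mice lay below the control median, 7 of them below the lowest control, and the log2 fold change was -0.39 (SE 0.07, adjusted p = 0.000312). Its partner Ndufaf4 ranged from 16.2 to 21.2 FPKM (median 18.8) against 16.3 to 21.96 FPKM (median 18.04). The groups of Ndufaf4 overlapped throughout, and its log2 fold change of 0.01 (SE 0.05, adjusted p = 0.94) did not pass, and it was at -0.05 with quantile normalization and at -0.02 with median-ratio scaling.

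Ndufaf6, also needed for the Q module, ranged from 15.04 to 19.4 FPKM in the controls (median 17.1) and from 12.5 to 16.3 FPKM with ANG II (median 13.5). Of its ANG II mice 9 of 12 lay below the lowest control, and the log2 fold change was -0.28 (SE 0.05, adjusted p = 0.000112). Ndufaf5 and Ndufaf7 encode enzymes that modify arginines of complex I subunits. Ndufaf5 ranged from 17.7 to 24.5 FPKM (median 20.2) against 13.3 to 20.3 FPKM (median 17.1), a log2 fold change of -0.23 (SE 0.06, adjusted p = 0.00403). Ndufaf7 ranged from 15.8 to 18.2 FPKM (median 16.6) against 14.5 to 17.97 FPKM (median 15.8), a log2 fold change of -0.06 (SE 0.04, adjusted p = 0.217). Of these, Ndufaf5 was lower than the control median in 11 of 12 ANG II mice and Ndufaf7 in 8 of 12.

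Ndufaf1 belongs to the assembly complex of the membrane arm. It ranged from 29.4 to 40.1 FPKM in the controls (median 35.4) and from 27.6 to 34.8 FPKM with ANG II (median 30.7), a log2 fold change of -0.20 (SE 0.05, adjusted p = 0.00184). All 12 ANG II mice lay below the control median and 4 below the lowest control. Ndufaf2, a relative of Ndufa12 that helps to attach the N module, ranged from 14.8 to 19.6 FPKM (median 16.8) against 13.0 to 18.2 FPKM (median 15.9). Its log2 fold change of -0.11 (SE 0.06, adjusted p = 0.144) did not pass. With quantile normalization 6 of 7 Ndufaf genes were called lower, Ndufaf2 at -0.16 (adjusted p = 0.0303) and Ndufaf7 at -0.12 (adjusted p = 0.0241) among them. That scaling turned the balance over all genes, from 2928 higher and 1769 lower to 1922 higher and 2930 lower.

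Ndufa4 and Ndufa4l2 differed from each other. Ndufa4, now counted as a subunit of cytochrome c oxidase, was the most abundant Nduf gene, at 1156 to 1970 FPKM in the controls (median 1507) and 935 to 1278 FPKM with ANG II (median 1090). It was lower than the control median in all 12 ANG II mice, with a log2 fold change of -0.44 (SE 0.08, adjusted p = 0.000127). Its relative Ndufa4l2, a known target of hypoxia signalling, ranged from 16.2 to 37.0 FPKM (median 29.8) against 13.8 to 39.5 FPKM (median 29.98). The groups of Ndufa4l2 overlapped throughout, and its log2 fold change of 0.04 (SE 0.15, adjusted p = 0.864) became -0.22 (adjusted p = 0.306) without samples 4 to 6 of each group.

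Because the deposited values had been scaled within the sets with the group differences held aside, differences before that step were recovered from the spacing of the values. This gave the ANG II minus control difference in each set for 13533 genes (90.8%), among them 42 of 45 Nduf genes (not Ndufv3, Ndufa10 and Ndufaf4). The offset of each set stays unknown, so levels before the step cannot be given. All 34 recovered subunits were lower with ANG II in all 4 sets, as were 6 of 6 recovered Ndufaf genes and Ndufa4. Ndufaf4, which was not recovered, was lower in 2 of 4 sets in its deposited values. Over the 12997 recovered genes tested, 13% were lower in all 4. In an exact permutation test over all 160000 relabelings of mice within the sets, two-sided and adjusted over those genes, 34 of 34 subunits and 4 of 6 Ndufaf genes were called lower, where 10.7% of the genes were.

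The recovered differences varied between the sets. For Ndufa3 they were -265, -271, -205.5 and -452 FPKM in the 4 sets in order. Here each set of 3 ANG II mice averaged below its 3 controls. For Ndufs1 they were -2.88, -40.4, -59.0 and -6.28 FPKM, so the fall lay mainly in samples 4 to 9, and its adjusted p in the exact test was 0.0477. For Ndufaf3 they were -4.13, -4.54, -5.76 and -10.3 FPKM (exact test, adjusted p = 0.00299). The 2 recovered Ndufaf genes that did not pass were Ndufaf2 (adjusted p = 0.199 in the exact test) and Ndufaf7 (adjusted p = 0.15 in the exact test). For Ndufa4l2 the differences were -4.11, 17.6, -0.67 and -7.75 FPKM, with 1 set of 4 above 0.

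**Figure D3:**
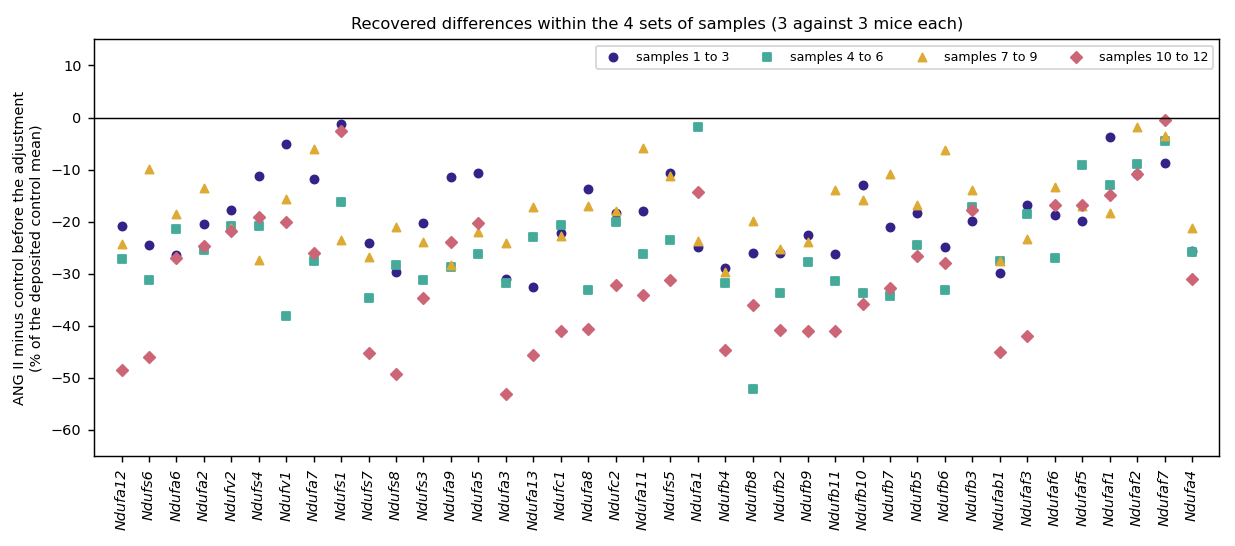
Differences between ANG II and control means before the adjustment, within each set of 3 against 3 mice, as a percentage of the gene's deposited control mean, for 33 subunits, 6 Ndufaf genes and Ndufa4. All points lie below 0. Ndufaf4 has no recovered difference, and Ndufa4l2 is left out, at -4.11, 17.6, -0.67 and -7.75 FPKM in the 4 sets.

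Complex I assembly factors without the Nduf name were also mostly lower, 7 of the 9 that are in the table out of 12 listed, with 0 higher and a median log2 fold change of -0.25. The 3 largest falls were those of Ecsit at -0.45 (SE 0.07), a partner of Ndufaf1, of Tmem186 at -0.33 (SE 0.05), of the same assembly complex, and of Nubpl at -0.28 (SE 0.07), which supplies iron-sulfur clusters. Acad9 at -0.05 and Tmem126b at -0.13, further members of the complex of Ndufaf1 and Ecsit, did not pass (adjusted p = 0.232 and 0.0662). Like the Ndufaf genes these factors had low levels, with control means from 7.77 to 80.6 FPKM.

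Subunits of the other respiratory complexes were lower as well, and 0 of these genes were called higher. In complex II 4 of 4 fell (median -0.34), in complex III 7 of 9 (median -0.41), in complex IV 11 of 13 (median -0.40) and in the ATP synthase 15 of 15 (median -0.34). The median of the complex I subunits was -0.42. The largest falls were those of Sdhb (-0.55), Sdhc (-0.45) and Sdhd (-0.22) in complex II and of Uqcrc1 (-0.50), Uqcr11 (-0.50) and Uqcrq (-0.43) in complex III. In complex IV they were those of Cox7a1 (-1.21) and Cox8b (-0.63), muscle forms of their subunits, and of Cox5b (-0.48), and in the ATP synthase those of Atp5e (-0.58), Atp5g1 (-0.56) and Atp5o (-0.48). The genes that did not pass were Uqcrb (-0.06) and Uqcrh (-0.15) in complex III and Cox6a1 (0.02) and Cox8a (0.01) in complex IV.

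**Figure D4:**
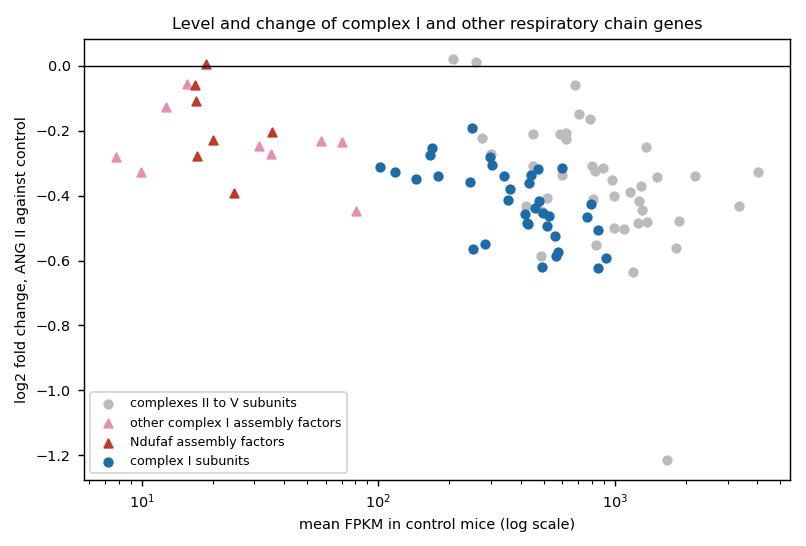
Log2 fold change with ANG II against the deposited mean FPKM in control mice (log scale) for complex I subunits, Ndufaf genes, other complex I assembly factors and subunits of complexes II to V. The subunits of complex I lie between 102 and 920.3 FPKM and the Ndufaf genes between 16.8 and 35.5 FPKM, without overlap.

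Across the 36 subunits, genes with a higher deposited control mean had the larger falls (Spearman's rho -0.63 between control mean and log2 fold change). The 36 genes share all their mice and are not independent. The control values also enter both measures, which by itself can lower rho. The summed exon length of the genes, 419 to 8086 bases, gave a rho of -0.19. From mouse to mouse the subunits varied together. After the mean of each set and group was removed, the correlation of a subunit with the mean of the other subunits over 24 mice had a median of 0.89, and ranged from -0.11 (Ndufs1) to 0.97 (Ndufb8). Among the Ndufaf genes it was 0.84 for Ndufaf3, 0.82 for Ndufaf6, 0.80 for Ndufaf1 and 0.635 for Ndufaf5, and 0.12 for Ndufaf2, 0.05 for Ndufaf7 and -0.43 for Ndufaf4. These correlations come from shared, adjusted libraries and are given as a description.

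Markers of other cell types moved in the same mice. Of the cardiomyocyte markers 5 of 8 were lower and 0 higher, with Tnni3 at -0.63, Mb at -0.59 and Myl2 at -0.50. Ryr2 (0.01), Tnnt2 (-0.07) and Myh6 (-0.23) did not pass (adjusted p = 0.921, 0.402 and 0.0648 in limma). Of the 6 markers with recovered differences, 2 were lower in all 4 sets, and 3 were called lower in the exact test. The summed level of the 8 markers ranged from 51409 to 68153 FPKM in the controls and from 38050 to 55653 FPKM with ANG II. The mean log2 level of the subunits minus that of the cardiomyocyte markers ranged from -3.74 to -3.29 in the controls and from -3.94 to -3.54 with ANG II. These ranges overlapped, with group means of -3.60 and -3.70 and 4 of 12 ANG II mice below the lowest control.

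Of the fibroblast markers 4 of 7 were higher and 0 lower, with Col1a1 at 2.77, Col1a2 at 2.49 and Lum at 1.15, and their summed level ranged from 134 to 811 FPKM in the controls and from 582 to 1923 FPKM with ANG II. Col1a1 and Col1a2 were at or below 0 in control samples 4 to 6, and the fibroblast difference was 3.58 on the log2 scale in that set and 0.20 to 0.35 in the other sets. The subunits differed by -0.49 in that set and by -0.31, -0.32 and -0.57 in samples 1 to 3, 7 to 9 and 10 to 12.

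All 6 macrophage markers were higher, led by Cd68 at 0.92, C1qa at 0.65 and Cd163 at 0.55, with sums of 92.8 to 183 FPKM in the controls and 130 to 349 FPKM with ANG II, none of them at 0. The rise of their mean log2 level was uneven, at 0.14, 1.09, 0.73 and 0.25 in the 4 sets in order. Endothelial markers went both ways, with Pecam1 at 0.37 and Kdr at -0.23 past the test and sums of 295 to 384 against 277 to 449 FPKM, none of them at 0. So did smooth muscle and pericyte markers, with Cnn1 at 1.02, Kcnj8 at -0.58 and Abcc9 at -0.41 past the test and sums of 191 to 267 against 196 to 274 FPKM, Cnn1 being at or below 0 in 2 controls. The part of these cell types in the fall of the Nduf genes was not tested.

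The 45 Nduf genes are all protein-coding and lie on 16 chromosomes in GENCODE vM21 (GRCm38), at most 6 of them on 1 chromosome (chromosome 17) and 2 on the X chromosome (Ndufa1 and Ndufb11). Exons of 19 of them overlap exons of another gene, such as Tfpt for Ndufa3 and Impdh2 for Ndufaf3, and 7 near-copies named in RefSeq (such as those of Ndufb4, Ndufab1, Ndufa11 and Ndufs5) were not analysed here, so fragments of these members could have been divided or joined in the counting.

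Since most members were lower with ANG II, their promoters were searched on both strands for short words of known regulators. RefSeq (GRCm38.p6) gave a promoter, from 250 bases before to 50 after the start, for 39 of 45 members. AAGATGGC, a word of the factor YY1, was in the promoters of 7 of 32 subunits and 0 of 6 Ndufaf genes, against 3.19% of all 27025 genes' promoters. GCGCATGCG, of NRF1, was in those of 2 subunits (Ndufa8 and Ndufa11) and 2 Ndufaf genes (Ndufaf4 and Ndufaf5), against 1.95%. GGGCGGG, of Sp1, was in those of 12 subunits and 3 Ndufaf genes, against 27.9%, CCGGAAGT, of GABP, in that of 1 subunit (Ndufs3), against 4.31%, and TCAAGGTCA, of ERR, in none, against 0.466%. A match is a description of the letters and not a binding site.

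The YY1 words are shown because all 7 lie in the same place, on the strand of the gene, 23 to 39 bases after the start, and in all 7 the ATG within the word is the annotated start codon. The 30 bases around each are given 5′ to 3′ with the word in capitals, at chr7:3617384-3617413 for Ndufa3, chr19:44555393-44555422 for Ndufb8, chr10:80249462-80249491 for Ndufs7, chr3:51408915-51408944 for Ndufc1, chr13:73328433-73328462 for Ndufs6, chr6:126849097-126849126 for Ndufa9 and chr13:114388045-114388074 for Ndufs4 (plus strand for Ndufa3 and Ndufs7, minus strand for the others).
Ndufa3: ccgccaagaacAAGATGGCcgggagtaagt
Ndufb8: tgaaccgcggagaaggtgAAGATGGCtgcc
Ndufs7: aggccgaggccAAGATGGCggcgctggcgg
Ndufc1: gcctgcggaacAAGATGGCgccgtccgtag
Ndufs6: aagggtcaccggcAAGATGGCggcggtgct
Ndufa9: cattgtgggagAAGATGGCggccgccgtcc
Ndufs4: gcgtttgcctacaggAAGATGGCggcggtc
The log2 fold changes of these 7 genes ran from -0.33 (Ndufs4) to -0.62 (Ndufa3), and those of all 36 subunits from -0.19 to -0.62.

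The 250 bases before the start are shown for the subunit and the Ndufaf gene with the largest falls among those with a single listed promoter that holds no annotated exon. They are Ndufa3, which fell by 0.62 on the log2 scale (chr7:3617123-3617372, plus strand), and Ndufaf1, which fell by 0.20 (chr2:119662835-119663084, minus strand). Capitals mark GGGCGGG, which begins 48 bases before the start in Ndufa3 and 223 bases before it in Ndufaf1.
Ndufa3: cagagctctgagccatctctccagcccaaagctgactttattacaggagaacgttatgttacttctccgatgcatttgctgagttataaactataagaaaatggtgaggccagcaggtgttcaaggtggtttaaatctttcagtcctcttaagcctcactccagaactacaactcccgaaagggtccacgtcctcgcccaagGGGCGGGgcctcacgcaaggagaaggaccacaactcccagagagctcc
Ndufaf1: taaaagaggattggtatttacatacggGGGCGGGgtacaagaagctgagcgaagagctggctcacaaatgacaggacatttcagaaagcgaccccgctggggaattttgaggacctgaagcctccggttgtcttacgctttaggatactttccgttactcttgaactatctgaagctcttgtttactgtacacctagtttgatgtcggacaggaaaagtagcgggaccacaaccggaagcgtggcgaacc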

How the data were processed

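The deposited table held 1 value per gene and mouse that the authors call FPKM. The processing notes name HISAT, Bowtie2 and RSEM, without versions, and the genome build is not given in the sources used here. The labels' extraction protocol names a cell type that is not cardiac. Since some deposited values are negative, they were treated as a score, that is FPKM adjusted by set, a step the study's methods do not name. Negative values were set to 0, log2(FPKM + 1) was taken, and the 14026 genes whose mean reached 0.1 were tested. Groups were compared with limma 3.58.1 (R 4.3.3; lmFit, eBayes with trend) over 12 against 12 mice, two-sided, with Benjamini-Hochberg adjustment; this test does not account for the adjustment by set. The other steps used Python 3.11.15. Members and lists were chosen with earlier results of these data known. The study calls its samples biological replicates.

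Values before the adjustment were taken to lie in steps of 0.01 FPKM. The scale of a gene in a set was found from its spacing, and the group difference held aside as the single value giving whole steps in all 4 sets. The recovery was tested on simulated data: of 400 genes made with this structure, 363 gave the right differences and 1 gave wrong ones, and of 400 made without it, 0 gave a solution. In data simulated for the limma comparison, with 200 of 14026 genes changed by 0.5 on the log2 scale, 184 were called, as were 11 unchanged genes.

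All Nduf rows enter the counts and medians; 1 gene is not reported here on its own. Ranges over mice were given for the nuclear core subunits, Ndufab1, Ndufv3, Ndufa4, Ndufa4l2, the Ndufaf genes and the 5 other subunits with the largest fall or rise. Of other lists, the 3 largest called changes and called genes against the majority were named; members of other lists that did not pass, Ndufs4, Ndufs6 and the genes named for extreme values, overlaps or promoter words were chosen after their values were seen. Alternatives were quantile normalization, median-ratio scaling, a smaller pseudocount (0.1), a minimum mean of 1 or none, limma without its trend, the rank-sum test of Wilcoxon, the replicate number as a block, the set as a term, each set left out and, added after the data were seen, the exact test within sets and control sample 3 left out.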

Additional observations from a re-analysis of the deposited data

How the results depend on the processing

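The counts of subunits, Ndufaf genes and other assembly factors called lower, and the median log2 fold changes of the subunits and of the Ndufaf genes, kept their direction under the alternatives, and no count moved by over 1.5 times; the exact test within sets gave counts and no medians. Between 31 (without samples 4 to 6 of each group) and 36 subunits were called lower, and between 4 and 6 (quantile normalization) Ndufaf genes. Without control sample 3, whose values sum highest, the numbers were 36 and 4. Of the named genes, Ndufaf4 turned from 0.006 to -0.053 with quantile normalization, -0.024 with median-ratio scaling, -0.019 without samples 1 to 3 and -0.012 without control sample 3, and Ndufa4l2 from 0.037 to -0.22 without samples 4 to 6; the cause was not tested. Deviations of same-numbered samples from their group means had correlations from -0.557 to -0.00109, with 0 of 12 pairs over 0.1. Same-numbered samples share a set, and the adjustment by set acted on both groups of a set together, which can hide a pairing. Whether the replicate numbers pair the mice therefore cannot be told from these correlations. With the replicate number as a block, 35 subunits and 4 Ndufaf genes were called lower, Ndufs1 at -0.193 (adjusted p = 0.0524) being the subunit that was not. Depth per mouse is unknown, and set offsets are unknown for the recovered differences.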
